A study of Mus musculus with 4 samples.

Results

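Keratins 7, 8, 18, 19 and 23 are described here in the liver of mice with a mutant Wrn protein, with and without vitamin C. The 5 genes were taken by symbol: a probe belonged to a gene when its RefSeq accession mapped to that symbol, which gave 6 of the 41174 probes on the array (2 for Krt8 and 1 for each other gene). They were chosen by name, as the keratins of hepatocytes and bile ducts together with Krt23, with no threshold. Their vitamin C over untreated ratios on these 4 arrays were known when they were chosen and count as used in the choice. Their treated-over-untreated values are therefore given as a description, with no test.

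Treated animals were 3-month-old male C57Bl/6 mice carrying a mutant Wrn protein, and their water held 0.4% vitamin C from weaning onward. Untreated animals were males of the same age, strain and Wrn mutation. Both groups thus carried the mutation, which the labels name only as mutant, and no animal with normal Wrn was on the arrays used here. Each of the 4 arrays held 1 treated liver in Cy3 and 1 untreated liver in Cy5, so there were 4 livers a group in 4 pairs, described as biological replicates.

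Keratins are intermediate filament proteins of epithelial cells, built as pairs of a type I and a type II chain. Adult hepatocytes are known to hold a single pair, Krt8 (type II) with Krt18 (type I), whereas the cells that line bile ducts also make Krt7 (type II) and Krt19 (type I). Krt23 is a type I keratin known in mouse liver for its induction by toxic injury, mainly in the ductular reaction, an outgrowth of small bile ducts. These filaments give liver cells mechanical strength and resistance to stress.

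Each value is the log2 of the vitamin C signal over the untreated signal unless it is called a level. A level is the log2 intensity of 1 channel, scaled to be comparable between arrays. Which liver is the numerator follows from the dyes named in the labels. Since 0 arrays were dye-swapped, vitamin C and a dye preference of a probe cannot be told apart. By the same labels, the deposited table of log2 values runs the other way, as untreated over treated. Median spot intensities were 379.5 to 530 in Cy3 and 813 to 962 in Cy5, while negative control spots had 62 to 67 in Cy3 and 66 to 80 in Cy5. All 12 hepatocyte markers tested, albumin (Alb) among them, were well above background in both channels on all 4 arrays, as were all 6 keratin probes, and 0 keratin spots were saturated or marked as outliers. Across all genes, limma's test called 0 of 31073 at an adjusted p under 0.05 (0% called), and 27.7% at an unadjusted p under 0.05.

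Upstream sequence from RefSeq (GRCm38.p6), 250 bases before to 50 after the gene start, was found for 4 of the 5 genes. It is shown for Krt23, the keratin with the largest ratio, and for Krt8 and Krt18, the hepatocyte pair, which sit next to each other on chromosome 15 with 0 coding genes between them. Capitals mark TATAAA (the core of a TATA box), GGGCGG (GC box), TGANTCA (AP-1), TTCNNNGAA (STAT), AGGTCA (nuclear receptor half-site) or CACGTG (E-box), searched on both strands.
Krt23, chr11:99493071-99493370, minus strand: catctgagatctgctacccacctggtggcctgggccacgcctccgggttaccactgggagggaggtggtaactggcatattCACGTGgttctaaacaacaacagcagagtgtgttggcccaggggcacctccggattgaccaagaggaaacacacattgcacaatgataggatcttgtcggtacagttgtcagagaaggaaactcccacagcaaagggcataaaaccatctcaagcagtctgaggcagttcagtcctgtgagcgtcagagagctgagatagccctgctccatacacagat
Krt8, chr15:102004293-102004592, minus strand: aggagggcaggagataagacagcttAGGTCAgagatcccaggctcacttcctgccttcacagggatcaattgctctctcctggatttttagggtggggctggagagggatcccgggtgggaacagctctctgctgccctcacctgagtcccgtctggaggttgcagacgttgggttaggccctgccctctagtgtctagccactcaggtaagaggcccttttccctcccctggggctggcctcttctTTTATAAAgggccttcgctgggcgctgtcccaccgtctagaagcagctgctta
Krt18, chr15:102027966-102028265, plus strand: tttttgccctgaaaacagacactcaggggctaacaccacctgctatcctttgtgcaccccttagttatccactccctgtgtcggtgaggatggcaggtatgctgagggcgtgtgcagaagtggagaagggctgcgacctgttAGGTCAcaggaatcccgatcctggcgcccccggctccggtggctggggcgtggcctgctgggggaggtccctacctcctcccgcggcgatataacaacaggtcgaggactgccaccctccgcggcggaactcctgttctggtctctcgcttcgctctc

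The Krt23 window held 1 of the 6 motifs, the E-box, at positions -169 to -164 from the gene start. Of 32851 windows of the same length, 7.15% held that motif. The Krt8 and Krt18 windows each held a nuclear receptor half-site (16.3% of windows), and that of Krt8 held TATAAA on both strands in overlapping positions (13.6%). None of the 3 windows held the GC box, AP-1 or STAT letters, whereas that of Krt7 held 4 GC boxes (35.7% of windows hold at least 1). These matches describe the letters in the windows.

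Krt23, the injury-inducible type I keratin, had the highest ratio of the keratins. Its ratios were 1.53, 0.25, 1.75 and 1.40 on replicates 1 to 4, with a mean of 1.23 ± 0.67 (SD, n = 4), or a mean fold of 2.35. Replicates 1, 3 and 4 had folds of 2.88, 3.37 and 2.64, and replicate 2 had the lowest, 1.19. Krt23 was not among the sets of values flagged below for 1 array far from the rest. Across all probes, ratios spread least on replicate 2 (SD 0.172, against 0.22, 0.281 and 0.303 on replicates 1, 3 and 4). Without replicate 2 the mean was 1.56 ± 0.18 (n = 3), and without replicate 1, 3 or 4 it was 1.135, 1.059 or 1.177.

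The spread of Krt23 lay mostly in the treated livers. Treated levels were 11.15, 9.88, 11.19 and 10.60, and untreated levels were 9.62, 9.63, 9.44 and 9.20. All 4 treated livers lay above all 4 untreated livers, as was so for 4.49% of all genes. The SD was 0.61 among treated and 0.20 among untreated livers. The treated liver of replicate 2 was the lowest of its group and lay nearest to the untreated livers. Before normalization, the Cy3 signal of Krt23 was 1822, 661, 1327.5 and 1270.5 against local backgrounds of 41 to 43.5, and its Cy5 signal was 1025, 1075.5, 1068 and 869.5 against 49 to 68. The raw untreated signal thus varied little, while the raw treated signal of replicate 2 lay well below those of the other 3. In bulk liver, a higher level per cell and more cells of a type that holds the transcript cannot be told apart.

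**Figure D1:**
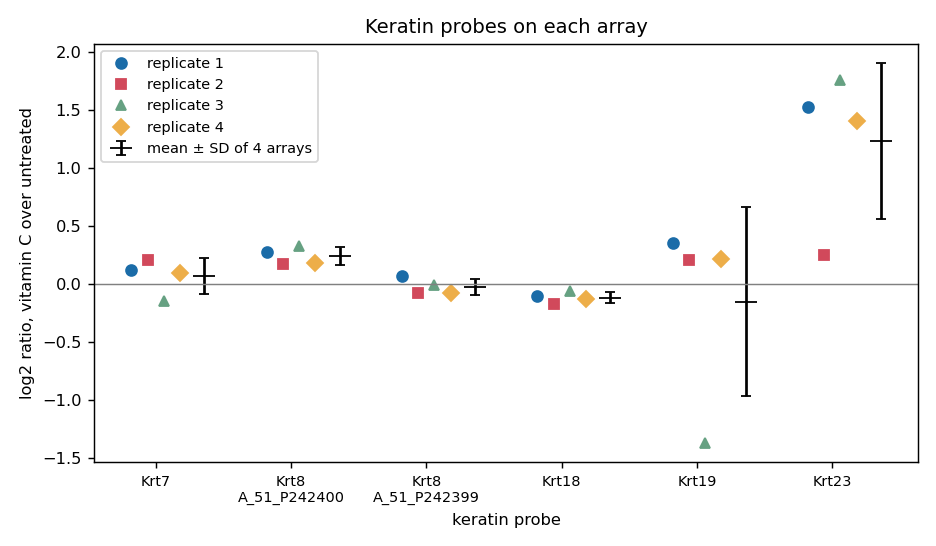
Log2 ratio of vitamin C over untreated (vertical axis) for the 6 keratin probes (horizontal axis), with 1 point per array and the mean ± SD of 4 arrays beside them. Krt23 lies above 1 on 3 arrays and at 0.25 on replicate 2, Krt19 lies at -1.37 on replicate 3, and the other probes lie within 0.33 of 0.

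By mean ratio Krt23 ranked 6 among 31073 genes or accessions, and 4 among the 17082 with a symbol, behind Cyp4a14, Cyp2b9 and Id1. Its mean ranged from 1.11 (median centring without loess) to 1.34 (Agilent's processed signals) between ways of processing the arrays. Its genome neighbours did not share the value: of the 3 coding genes on each side, 4 were measured, the keratin genes Krt10, Krt12 and Krt20 and the keratin-associated gene Krtap3-3, and their means ran from -0.11 to 0.11.

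The genes whose ratios lay nearest to those of Krt23 were taken from 16855 named genes well above background in both channels on all arrays, by the root mean square difference over the 4 ratios. The nearest was Serpina7, which encodes the thyroxine-binding globulin, at a difference of 0.24 and with ratios of 1.53, -0.15, 1.65 and 1.17. Next came Acot1, a cytosolic acyl-CoA thioesterase (0.26), Vldlr, the receptor of very low density lipoprotein (0.36), Cd36, a fatty acid carrier of the plasma membrane (0.37), and Igfbp1, a binding protein of insulin-like growth factors (0.45). All 5 had ratios of 0.90 or more on replicates 1, 3 and 4 and below 0 on replicate 2. Krt23 therefore differed from each of them in sign on replicate 2, where its own ratio was 0.25. Some also differed from it on other arrays: on replicate 4 Acot1 was at 1.05 and Cd36 at 0.90, against 1.40 for Krt23. Only 1 gene lay within 0.25 of Krt23 by this measure, against 6917 within 0.25 of Krt8, whose ratios are near 0.

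**Figure D2:**
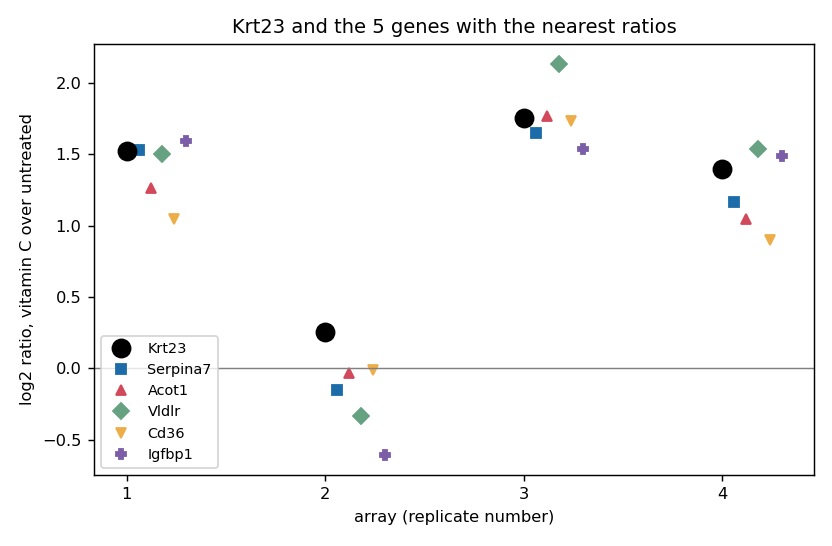
Log2 ratio of vitamin C over untreated (vertical axis) on each array (horizontal axis) for Krt23 and the 5 genes whose 4 ratios were nearest to it. On replicate 2 Krt23 is at 0.25 and the 5 genes are below 0, while on the other arrays all 6 genes are at 0.90 or more.

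The hepatocyte pair was bright on the arrays, and its small ratios depended on the normalization. Krt18 had ratios of -0.10, -0.17, -0.062 and -0.13, a mean of -0.12 ± 0.047 (SD, n = 4) and a mean fold of 0.922. All 4 ratios of Krt18 were below 0, as they were for 16.1% of all genes, but its treated levels (16.34 to 16.46) overlapped the untreated ones (16.44 to 16.59), and with Agilent's processed signals the mean was above 0, at 0.057. Without loess the mean of Krt18 was -0.34, below 0 on all 4 arrays.

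For Krt8 the result depended on the probe. Probe A_51_P242400 had ratios of 0.28, 0.18, 0.33 and 0.18, with a mean of 0.24 ± 0.074 (SD, n = 4). Probe A_51_P242399, assigned to the same accession, had 0.067, -0.076, -0.0078 and -0.081, with a mean of -0.024 ± 0.070. The first probe was above 0 on all 4 arrays, as were 14.8% of all genes, and was at 0.044 without loess. The second lay on both sides of 0, and without loess below 0 on all 4 arrays, with a mean of -0.22. Treated levels of the first (15.93 to 16.08) lay above the untreated ones (15.73 to 15.80), and those of the second overlapped. With Krt23 this makes 2 of 6 keratin probes with all treated livers above, where 4.49% of all genes lay. All treated livers lay below for 0 keratin probes, against 2.54% of all genes. Without loess, the ratio of probe A_51_P242400 was below 0 on replicate 2, at -0.15. The probes differed by 0.27 ± 0.053 (n = 4), in the same direction on each array. Among 4403 genes with 2 probes well above background, the median absolute difference between the means of the probes was 0.13, and 19.9% differed by more than those of Krt8. The probes gave no common direction for Krt8.

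How close Krt8 lay to Krt18, its partner in the filament, also depended on the probe. Krt18 differed by 0.359 from probe A_51_P242400 and by 0.104 from A_51_P242399 (root mean square over 4 arrays). The first and brighter probe placed Krt18 at position 11671 of 16855 genes ordered by closeness to Krt8. The genes nearest to that Krt8 probe were Rfc1, Lrrc61, Eaf2, Mlst8 and Prepl, at differences of 0.022 to 0.031. So many genes have ratios near 0 that this closeness sets none of the 5 apart.

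**Figure D3:**
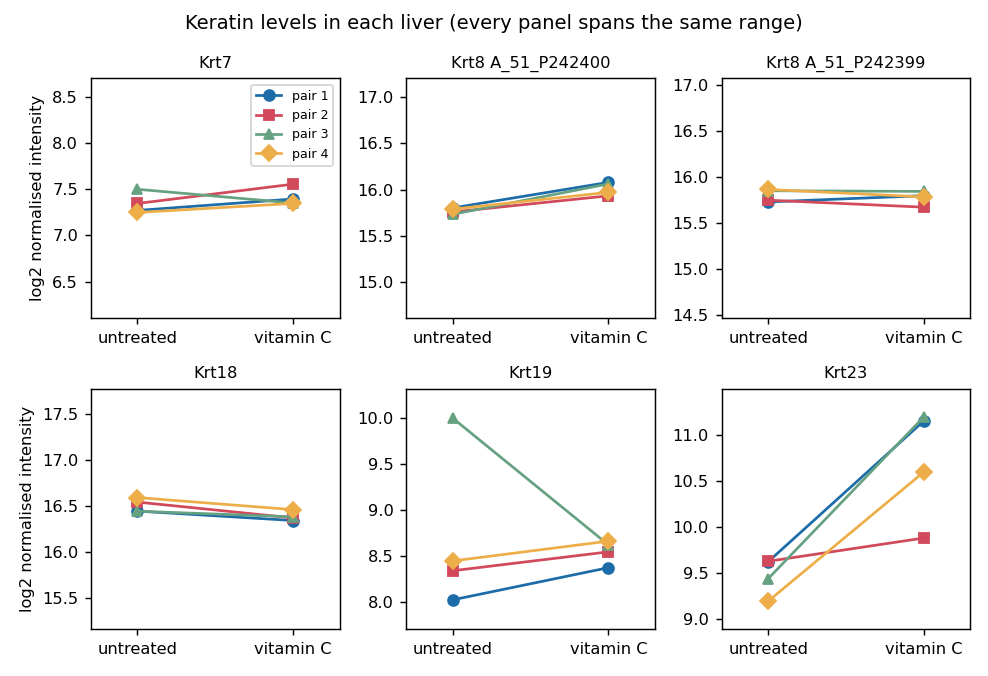
Level (log2 normalised intensity, vertical axis) of the 6 keratin probes in the untreated and vitamin C liver of each pair, joined by a line, with the same vertical range in each panel. For Krt23 the vitamin C liver is the higher one in each pair, by least in pair 2 (9.63 and 9.88), and Krt19 is high in the untreated liver of pair 3 (9.996).

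Of the bile duct keratins, Krt7 was dim, and its value depended on the normalization. Its ratios were 0.12, 0.21, -0.15 and 0.098, a mean of 0.070 ± 0.15 (SD, n = 4), and its raw Cy3 signal of 122.5 to 158 stood against local backgrounds of 46 to 50. The groups overlapped, at levels of 7.35 to 7.56 in treated livers and of 7.27, 7.35, 7.50 and 7.25 in untreated livers 1 to 4. The highest untreated level was that of replicate 3, the array with the ratio below 0. Its raw Cy5 signal was 253 there and 203 to 213 in the other untreated livers. Without loess its ratios were 0.26, 0.43, 0.19 and 0.30, above 0 on all 4 arrays, with a mean of 0.30 ± 0.10. Ratios of such dim probes are drawn toward 0 by the offset of 50 added to each channel.

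Krt19, the type I keratin of bile ducts, was set by 1 liver. Its ratios were 0.35, 0.20, -1.37 and 0.21, with a mean of -0.15 ± 0.82 (SD, n = 4). Without replicate 3 the mean was 0.26 ± 0.081 (n = 3), so the sign of the mean rested on that array. Treated levels were 8.38, 8.55, 8.62 and 8.66. Untreated levels were 8.03, 8.34, 9.996 and 8.45. The untreated liver of replicate 3 was thus 3.30 times above the mean of the other 3 untreated livers, and its treated partner lay within the treated group. The raw Cy5 signal was 1518 there and 337 to 488.5 in the other untreated livers.

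Few genes stood as far above in that liver. In all, 24 genes were over 1 on the log2 scale above the mean of the other 3 untreated livers there, against 21, 33 and 29 in untreated livers 1, 2 and 4. By the level of untreated liver 3 over the mean of the other 3, Krt19 ranked 4 of 17082 named genes. Dmbt1, a mucosal glycoprotein known from ducts and gut epithelium, ranked 1, with untreated levels of 7.32, 7.33, 12.24 and 7.33. Between Dmbt1 and Krt19 came Xlr4b (1.84) and Fmr1nb (1.75), and after Krt19 came Moxd1 (1.41) and Xlr3c (1.19), while the haemoglobin genes Hbb-bt and Hba-a1 ranked 12 and 14. S100g, a calcium-binding protein of intestinal epithelium, ranked 7 and was also the gene nearest to Krt19 in ratio, at a root mean square difference of 0.29. These genes were chosen after their values were seen. The bile duct markers had values near 0 in the median: of 20, 6 were highest in that liver (20.5% of all genes were), and their median difference was 0.027, with Cd24a, a surface glycoprotein, the highest at 0.57. Epcam, an epithelial adhesion molecule, was at 0.22, the duct transcription factor gene Sox9 at 0.040 and Spp1 (osteopontin) at -0.21. The untreated level of Krt7 was also highest in that liver, at 7.50 against 7.25 to 7.35 in the others. Of 9 mesothelial markers, 5 were highest in that liver (55.6%), with a median difference of 0.18, and of 9 intestinal markers 4 were (44.4%), with a median of 0.013 and Lgals4 the highest at 0.67. For 11 pancreatic acinar markers the median was -0.021. The summed level of the bile duct list was 15.92 in that liver, within the untreated range of 15.82 to 15.95, and 15.72 to 15.81 in treated livers. Intensities were summed before the log, so the sum follows bright genes such as Aqp1 (mean log2 intensity 14.02). A change in dim genes such as Epcam (7.36) could hardly move it. The part that cells of another tissue had in the Krt19 value was not tested.

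**Figure D4:**
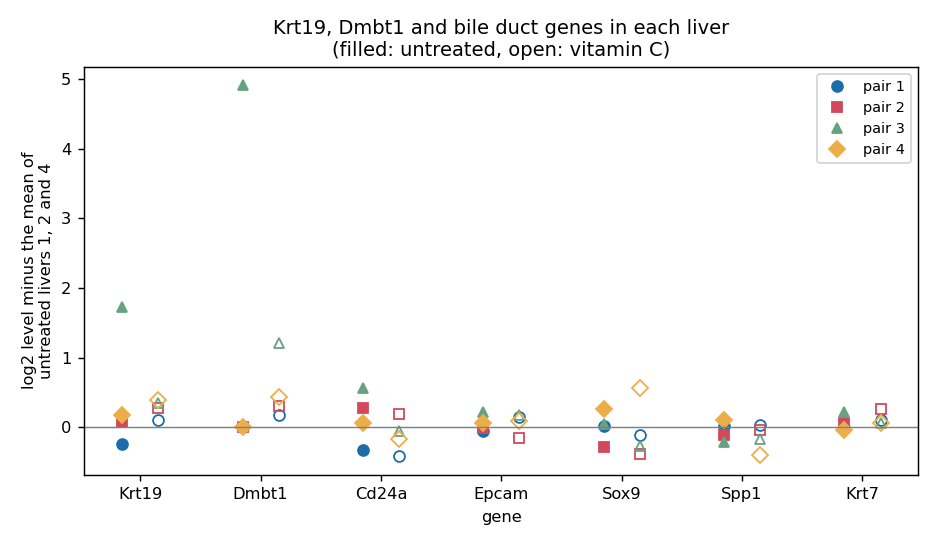
Level of 7 genes in each liver (vertical axis, log2) relative to the mean of untreated livers 1, 2 and 4, with filled symbols for untreated and open symbols for vitamin C livers. Untreated liver 3 stands at 1.72 for Krt19 and 4.92 for Dmbt1, and at most at 0.57 for Cd24a, Epcam, Sox9, Spp1 and Krt7.

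The surrounding genes were counted in 12 lists with 161 genes tested, and 0 of these passed at an adjusted p under 0.05 (limma, Benjamini-Hochberg over all genes). At an unadjusted p under 0.05, 13 were higher and 29 lower, or 8.07% and 18% of them, against 11.2% and 16.6% of all genes. The median of all genes was -0.015. Without replicate 2, limma called 28.2% of all genes at an adjusted p under 0.05, 10% higher and 18.1% lower, and 48 of the 161 list genes (29.8%), 17 higher and 31 lower.

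Of 17 other type I keratins, 1 was higher and 2 lower at an unadjusted p under 0.05, with a list median of -0.065. Krt10 and Krt14, keratins of the epidermis, had means of -0.065 ± 0.041 and -0.19 ± 0.23 (SD, n = 4), and Krt20, of gut and bladder epithelium, had 0.11 ± 0.11. Krt13, of internal stratified epithelia, had the smallest p of the list (0.18 ± 0.12, adjusted p = 0.151, limma), followed by the hair keratin gene Krt34 (-0.46 ± 0.40, adjusted p = 0.151, limma). Of 15 other type II keratins, 1 was higher and 3 lower, with a median of 0.020. The epidermal genes Krt1, Krt5 and Krt2 had means of -0.15 ± 0.032, -0.36 ± 0.35 and -0.40 ± 0.23, and Krt4, of the oesophagus, -0.062 ± 0.074; the smallest adjusted p was 0.144 (Krt2, limma). Skin markers outside the keratins had a median of -0.012 over 7 genes, with 1 higher and 0 lower. Of these, Lor, Trp63 and Ivl had means of -0.16, -0.042 and 0.059, and Dsg3 had 0.20.

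Desmosome and linker genes, whose products anchor keratin filaments, had a median of 0.078. Of 17, 4 were higher (23.5%) and 1 lower at an unadjusted p under 0.05. The number higher at an unadjusted p was 1 with Agilent's processed signals, 2 without loess, without replicate 1 or without replicate 3, and 9 without replicate 2. Of all 31073 genes, 3465 (11.2%) were higher in the main fit. That count was 2480 with Agilent's processed signals, 6148 without loess, 1903 without replicate 1, 1567 without replicate 3 and 5734 without replicate 2. Without replicate 2, 7 genes of the list passed as higher and 1 as lower at an adjusted p under 0.05. The shares of all genes there were 10% and 18.1%. By array the desmosome list had medians of 0.10, -0.084, 0.19 and 0.19, below 0 on replicate 2 alone. Plec, the linker plectin, had the largest mean by size, -0.51 ± 0.25 (SD, n = 4), with ratios of -0.16, -0.60, -0.72 and -0.58 (adjusted p = 0.144, limma). Fam83h, which is known to recruit a kinase to keratin filaments, had 0.30 ± 0.14. Dsp (desmoplakin) had 0.36, -0.46, 0.22 and 0.32, and Jup (plakoglobin) had a mean of 0.0078 ± 0.072.

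Intermediate filament genes outside the keratins had 1 higher and 4 lower of 15 and a median of -0.062. Vim, the vimentin gene of mesenchymal cells, had 0.30 ± 0.29 (SD, n = 4), Lmna 0.019 ± 0.055, the nuclear lamin gene Lmnb1 -0.60 ± 0.29 and the lens filament gene Bfsp2 -0.28 ± 0.17 (adjusted p of 0.144 or more, limma). Genes of keratin aggregates and stress, such as those in Mallory-Denk bodies of injured hepatocytes, had 2 higher and 4 lower of 15 and a median of -0.022. Sqstm1 (p62) had -0.083 ± 0.13, the transglutaminase gene Tgm2 -0.022 ± 0.11 and the small heat shock gene Hspb1 -0.32 ± 0.29. The ubiquitin gene Ubb had -0.20 ± 0.093.

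Bile duct markers had 1 higher and 3 lower of 20 and a median of -0.045, with array medians between -0.066 and 0.0071. Epcam and Sox9 had means of 0.0057 ± 0.15 and -0.061 ± 0.26 (SD, n = 4), Spp1 -0.092 ± 0.27, the mucin gene Muc1 -0.34 ± 0.18 and Elf3, an epithelial transcription factor gene, -0.18 ± 0.076. Genes known from the ductular reaction, in which Krt23 is induced, had 1 higher and 4 lower of 14 and a median of 0.064. Of these, Lcn2 (lipocalin) had 0.34, 0.49, 0.041 and -0.18, Tnfrsf12a, the receptor of the cytokine TWEAK, a mean of 0.12 ± 0.21, and Cd44 a mean of 0.43 ± 0.49. Anxa2, an annexin, had 0.31 ± 0.16 and Yap1, a growth regulator, -0.70 ± 0.27 (adjusted p = 0.144, limma). By array the list had medians of -0.063, 0.044, 0.045 and 0.083.

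Hepatocyte markers had 0 higher and 3 lower of 12 and a median of -0.22, with Alb at -0.70 ± 0.25 (SD, n = 4, adjusted p = 0.144, limma), Ttr (transthyretin) at 0.11 ± 0.13, the transcription factor gene Hnf4a at 0.077 ± 0.19 and Glul (glutamine synthetase) at -0.35 ± 0.16. Their summed level was 19.90 to 20.15 in treated and 20.30 to 20.35 in untreated livers. Mesothelial cells, which cover the liver and also make simple keratins, had 1 marker higher and 0 lower of 9 and a median of -0.022. Msln (mesothelin) had 0.41 ± 0.15, with ratios of 0.59, 0.46, 0.39 and 0.22, while Upk3b and Upk1b had means of 0.047 ± 0.14 and -0.37 ± 0.40. Pancreatic acinar markers had 0 higher and 2 lower of 11 and a median of -0.014 (Cpa1 0.098, Pnlip 0.064, Cela1 -0.065, Cpb1 -0.38 and Cel -0.30). Intestinal markers had 0 higher and 3 lower of 9 and a median of -0.12 (Vil1 -0.25, Fabp2 0.23, Cdx1 0.086, Cdx2 -0.15 and Lct -0.23). Cdx2, 1 of the 3 lower, was dim (mean log2 intensity 6.45) and well above background in only 1 of the 4 treated livers. The part of these cell types in the keratin ratios was not tested.

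**Figure D5:**
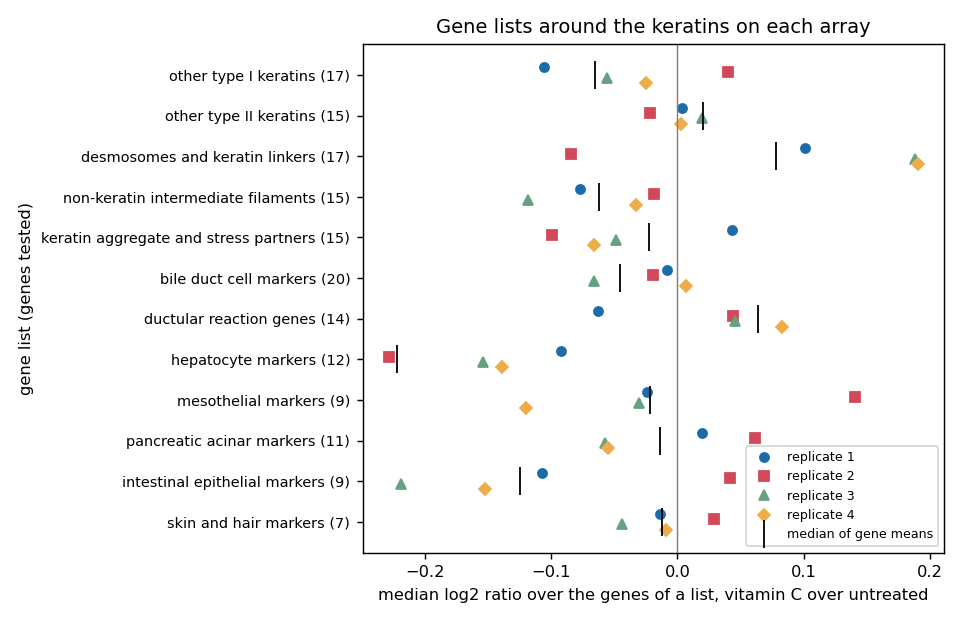
Median log2 ratio of vitamin C over untreated (horizontal axis) over the genes of each of 12 lists (vertical axis, with the number of genes tested), with 1 symbol per array and a bar at the median of the gene means. The desmosome list is at -0.084 on replicate 2 and at 0.10 to 0.19 on the other arrays, and the bile duct list stays between -0.066 and 0.0071.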

How the data were processed

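RNA of 8 livers was compared on 4 arrays with 2 colours. Per the file headers, Feature Extraction 10.5.1.1 (Agilent) gave the spot intensity values that the authors deposited. Beside flags of spot quality these deposited files hold the log10 of red over green. The authors also deposited a table of log2 values, for which the submitters' processing notes name limma. Its columns correlated across probes with log2 Cy5 over Cy3 computed here at 0.950 to 0.980, with medians of 0.00136 to 0.00497. By the dyes named in the labels, its direction is thus untreated over treated, whereas the sample titles name the vitamin C liver first. The deposited table is centred near 0. With the sign turned, its Krt23 values were 1.57, 0.27, 1.83 and 1.47, against log2 ratios of 1.53, 0.25, 1.75 and 1.40 here.

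Here median signals were background-corrected with normexp (offset 50) and normalized by loess within each array, with control and outlier spots at weight 0 and outlier spots then left out (R 4.3.3, limma 3.58.1). A gene was its probe of highest mean intensity, kept if 1 or both channels were well above background on 3 or more arrays, which left 31073 genes or accessions. Names came from RefSeq accessions of GRCm38.p6 for 25097 of 41174 probes. Each keratin probe was kept apart. The mean ratio of every gene was tested in limma (lmFit, eBayes) with Benjamini-Hochberg adjustment at 0.05. Each ratio is within 1 array and so within 1 pair of livers. Levels per channel were scaled across arrays (Aquantile). Motifs were searched with Python 3.11.15. The path was tested on simulated data.

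The keratins and lists were chosen with earlier results of these data known. Named from each list were its first 3 genes on the array and the 2 with the smallest p, and for Krt23 and Krt8 the 5 nearest genes; the nearest gene to Krt19 and the genes high in 1 liver were added after values were seen. The values of 1 gene that this rule names are not reported here. The 4 arrays lay on 1 slide with 1 scan date, so neither could be a block. Whether the livers came from separate animals is stated only as biological replicates, and the number of arrays limits the precision.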

Additional observations from a re-analysis of the deposited data

Results flagged for a closer look

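Of 71 sets of 4 values examined, 4 had 1 array far from the other 3 (5.63%, where chance gives about 1 in 20). Krt19 had a log2 ratio of -1.37 on replicate 3 against 0.20 to 0.35 on the others. Dsp was at -0.46 on replicate 2 against 0.22 to 0.36. Tgm2 was at -0.19 on replicate 1 against 0.019 to 0.042. Spp1 was at -0.50 on replicate 4 against 0.014 to 0.066.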

How the results depend on the processing

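Of 54 alternative means of the keratin probes, 48 moved by less than 1 SD between arrays, among them that of Krt19, which changed sign to 0.26 without replicate 3. Krt18 turned to 0.057 with Agilent's processed signals, where Krt8 probe A_51_P242399 was at 0.092. With median centring in place of loess, Krt18 was at -0.34, Krt7 at 0.30, Krt8 probe A_51_P242400 at 0.044 and A_51_P242399 at -0.22, and limma called 9628 genes at an adjusted p under 0.05, with 6148 higher and 8495 lower at an unadjusted p; in the lists these counts were 68, 37 and 49. Krt23 kept its direction under every alternative run, at 1.06 to 1.56. The cause of these shifts was not tested.

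Leaving out 1 array at a time gave 0 to 8753 genes at an adjusted p under 0.05, and 1567 to 5734 higher and 1548 to 7825 lower at an unadjusted p. In the lists the ranges were 0 to 48, 5 to 26 and 11 to 41. The highest count came each time without replicate 2. Both channels were also fitted separately, with the array as random replicate block to keep the pairing. That fit called 884 of 31061 genes and 8 list genes at an adjusted p under 0.05. It had 20 list genes higher at an unadjusted p under 0.05 and 34 lower. Over all genes these counts were 3860 higher and 5126 lower. A block of slide or scan date was not run, since there was 1 of each. Signal over background limits Krt7 most.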
